A study of Mus musculus with 8 samples.

Results

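Zic1, Zic2, Zic4 and Zic5 encode zinc finger transcription factors of the ZIC family, and their transcripts were followed by 6 probes, out of 55681 on the array, in the epidermis of newborn mice with and without EED. They are 4 of 21154 genes that could be named on the array. A probe was taken where its RefSeq accession belonged to 1 of these genes. Zic1 and Zic4 had 2 probes each, and Zic2 and Zic5 had 1 probe each. The family was chosen by the log2 difference of its probes between EED cKO and control on these same 8 arrays, after an earlier look had put Zic1 among the largest rises. The genotype differences of the Zic probes are therefore given as a description, with no test.

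ZIC proteins bind DNA through a tandem array of zinc fingers closely related to that of the GLI proteins, the transcription factors at the end of the Hedgehog pathway. They are best known in the dorsal neural tube, the neural plate border that gives rise to the neural crest, the cerebellum and the dorsal somites, and are not part of the usual description of the epidermis. These 4 genes lie in head-to-head pairs, Zic1 beside Zic4 on chromosome 9 and Zic5 beside Zic2 on chromosome 14. EED is the subunit of Polycomb repressive complex 2 (PRC2) that binds H3K27me3, the histone mark which the complex deposits. Genes of developmental transcription factors with CpG-rich promoters are its typical targets.

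RNA came from back skin epidermis, taken at P0 from 4 EED cKO mice, in which K14-Cre recombines the floxed EED alleles, and of 4 control mice, all labelled C57BL/6. The Krt14 promoter driving Cre is active in epidermal stem cells from mid-gestation, and the deletion passes to their descendants. Cells in the peeled epidermis that neither express Krt14 nor descend from cells that did keep their EED. The paper states that Merkel cells descend from Krt14(+) stem cells. The labels give no further genotype for the controls. Each sample was hybridized with Universal Mouse Reference RNA, a commercial mix, and was labelled with Cy3 in replicates 1 and 3 and with Cy5 in replicates 2 and 4, in both genotypes alike.

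The probe for Eed itself gave a log2 ratio of sample over reference of -1.80 ± 0.17 (SD, n = 4) in EED cKO and -0.35 ± 0.13 in control epidermis, a difference of -1.46 (limma adjusted p = 1.917e-05). Markers of epidermal keratinocytes were well above background with all 8 probes, and their summed log2 signal lay between 18.70 and 19.03 in EED cKO and between 18.72 and 19.23 in control samples. Of these probes 1 passed at any fold, a Trp63 probe that fell by 0.59 (limma adjusted p = 0.0034), while the other Trp63 probe was at 0.04. The share of spots whose sample channel was well above background ran from 51.5% to 65.5% per array, and precision is limited by having 4 arrays per genotype. All 8 arrays were on 1 slide, with EED cKO in one row and control in the other, so the slide row and the genotype cannot be told apart.

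The 250 bases upstream of the annotated start were taken from a table of RefSeq promoters (GRCm38.p6) for Zic1, Zic4 and Zic5, and that of Zic2 was not analysed here. They are shown because CpG density differed widely between Zic1 and its neighbour Zic4. The sequences run 5′ to 3′ on the strand of the gene, and capitals mark every CpG dinucleotide. Zic1 is at chr9:91365769-91366018 on the minus strand, Zic4 at chr9:91368722-91368971 on the plus strand and Zic5 at chr14:122465659-122465908 on the minus strand.
Zic1: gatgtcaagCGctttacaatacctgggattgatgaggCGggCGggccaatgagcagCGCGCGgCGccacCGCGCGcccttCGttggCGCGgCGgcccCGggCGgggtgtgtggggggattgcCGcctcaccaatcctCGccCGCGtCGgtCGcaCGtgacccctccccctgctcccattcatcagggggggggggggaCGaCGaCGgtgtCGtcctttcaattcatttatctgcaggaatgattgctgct
Zic4: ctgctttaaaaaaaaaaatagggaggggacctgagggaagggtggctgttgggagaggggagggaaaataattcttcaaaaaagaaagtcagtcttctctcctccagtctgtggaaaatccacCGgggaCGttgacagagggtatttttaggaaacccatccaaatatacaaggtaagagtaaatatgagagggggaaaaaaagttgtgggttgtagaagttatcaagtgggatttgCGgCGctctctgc
Zic5: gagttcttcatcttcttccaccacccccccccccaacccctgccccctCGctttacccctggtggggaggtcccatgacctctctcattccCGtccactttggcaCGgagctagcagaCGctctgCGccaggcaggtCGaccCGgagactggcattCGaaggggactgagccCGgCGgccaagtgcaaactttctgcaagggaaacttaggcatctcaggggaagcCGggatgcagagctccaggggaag

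The Zic1 window held 27 CpG dinucleotides, the Zic5 window 11 and the Zic4 window 4. A median window held 6, over 32851 promoters of the same length. At least 27 were found in 8.56% of these promoters, at least 11 in 35.6% and at least 4 in 62.2%. The Zic1 window was thus far above the median, whereas the window of its neighbour Zic4 was below it. These are counts of letters in 1 window per gene, and no mark or binding was measured here.

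Among the Zic probes, a large signal in EED cKO epidermis was seen with 1 of the 2 Zic1 probes. The log2 ratios of Zic1 probe A_51_P194230 were 3.79, 4.78, 4.18 and 4.17 in EED cKO replicates 1 to 4. In control replicates 1 to 4 they were -0.23, -0.08, -0.30 and -0.08. Every EED cKO array was thus far above every control array, and replicate 2 was the highest. The means were 4.23 ± 0.41 (SD, n = 4) and -0.17 ± 0.11, a difference of 4.40 or 21.2-fold on this scale, which ranked 1 among the rises of all 30727 probes tested. In these bulk samples, fewer cells of a type and less RNA per cell cannot be told apart, so the value does not say whether many cells or few held Zic1 RNA.

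The spot itself was bright in EED cKO and near background in control. Its signal after subtraction of the local background was 555.5, 1212, 669 and 689 units in EED cKO replicates 1 to 4. The 4 control replicates gave 13, 9.5, 23 and 7 units. Every EED cKO array put the probe well above background, as did 1 control array, replicate 2, so the control level was close to the limit of what the array reads, and the size of the fold moved with the treatment of background.

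The reference channel contributed little to the Zic1 difference. The normalized log2 signal of the sample channel was 10.15 ± 0.23 in EED cKO and 6.05 ± 0.04 in control (SD, n = 4), which is 17.1-fold. The reference RNA on the same spots, which holds no genotype, read 5.92 and 6.22, a difference of -0.31. The rise was of similar size in both dyes, at 4.25 where the sample carried Cy3 and 4.55 where it carried Cy5. It lay between 4.03 and 4.86 across the 4 pairs of arrays with the same replicate number.

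The other Zic1 probe gave no such difference. The log2 ratios of A_55_P2009774 were 0.10, 0.10, 0.35 and 0.06 in EED cKO and 0.16, -0.24, 0.08 and -0.06 in control replicates 1 to 4. The groups overlapped, and the difference of 0.17 was about the size of the pooled SD of 0.16. This was not a dark spot, because it was well above background on all 8 arrays in the sample channel and on all 8 in the reference channel. Both probes carry the same accession, so the data hold 2 readings of 1 gene that differ in kind. Where each probe sits in the transcript was not analysed here.

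**Figure D1:**
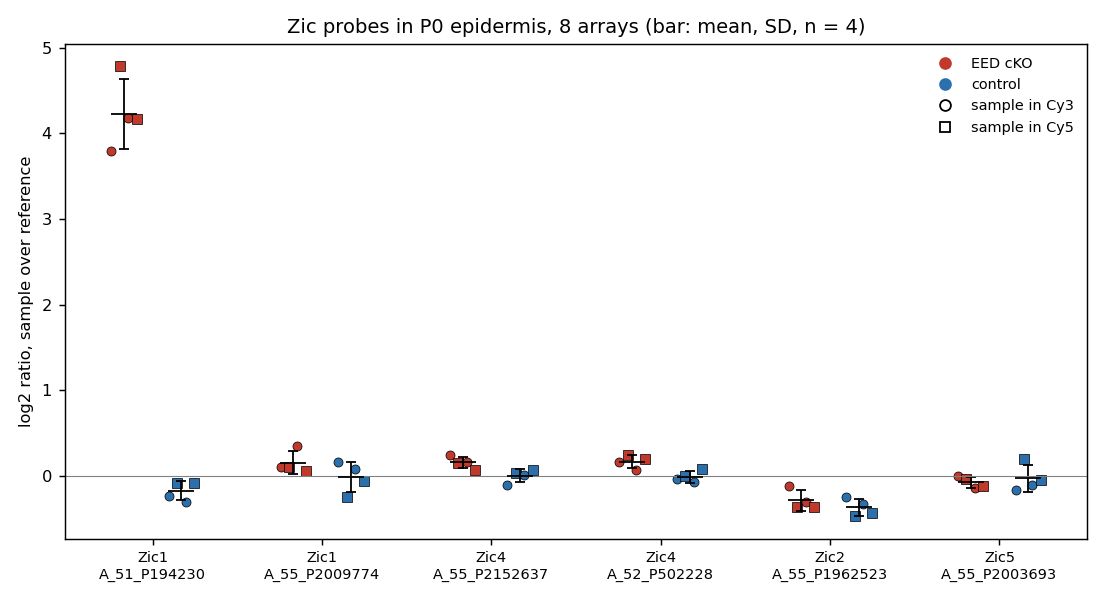
Log2 ratio of sample over reference (y axis) of the 6 Zic probes (x axis) on each of 8 arrays. Red points are EED cKO, blue points control, circles Cy3 and squares Cy5 samples, and bars are mean and SD (n = 4). Zic1 probe A_51_P194230 stands at 4.23 against -0.17, the second Zic1 probe stays near 0, and Zic2 lies below 0 in both genotypes.

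Zic4, the head-to-head neighbour of Zic1, was close to the detection limit in both genotypes. Probe A_55_P2152637 gave 0.24, 0.15, 0.17 and 0.07 in EED cKO replicates 1 to 4 and -0.10, 0.03, 0.01 and 0.07 in the controls. It was well above background on 3 EED cKO arrays and on no control array. All 4 EED cKO values exceeded all 4 control values, but the nearest 2 both round to 0.07. The measured difference in log2 ratio was 0.15. In the sample channel alone the mean log2 signals were 6.17 and 5.95. With each control array set to no less than its lowest signal well above background, EED cKO was 1.14-fold higher. That floor is not a detection limit, because control replicate 4 read 5.98, above its own floor of 5.83, without being well above background. EED cKO replicate 3 was itself not well above background, so the fold is not a firm minimum. The difference in ratio was 0.25 in Cy3 and 0.06 in Cy5.

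The second Zic4 probe, A_52_P502228, gave 0.16, 0.25, 0.07 and 0.19 in EED cKO and -0.04, 0.00, -0.08 and 0.08 in control replicates 1 to 4. The highest control value exceeded the lowest EED cKO value, so the groups overlapped. This probe was well above background on 1 EED cKO array, on no control array and in the reference on no array. The sample-channel means were 6.01 and 5.83, and no fold is given for so dim a spot. Both Zic4 probes thus differed in the same direction, by 0.15 and 0.18, at signals where the array barely reads. On the same scale, Zic1 probe A_51_P194230 differed by 4.40 and Zic1 probe A_55_P2009774 by 0.17.

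Zic2 was not well above background in any sample. Its log2 ratios were -0.12, -0.36, -0.31 and -0.36 in EED cKO and -0.24, -0.47, -0.33 and -0.43 in control epidermis, which overlapped. The Zic2 probe was nevertheless well above background in the reference RNA on all 8 arrays, so the same spot gave signal with that mix. No fold is given, because neither genotype was well above background.

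Zic5, the neighbour of Zic2, was not well above background on any array in either channel. Its log2 ratios ran from -0.14 to 0.00 in EED cKO and from -0.16 to 0.20 in control. The Zic5 values therefore say neither that the transcript was present nor that the probe could have read it.

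**Figure D2:**
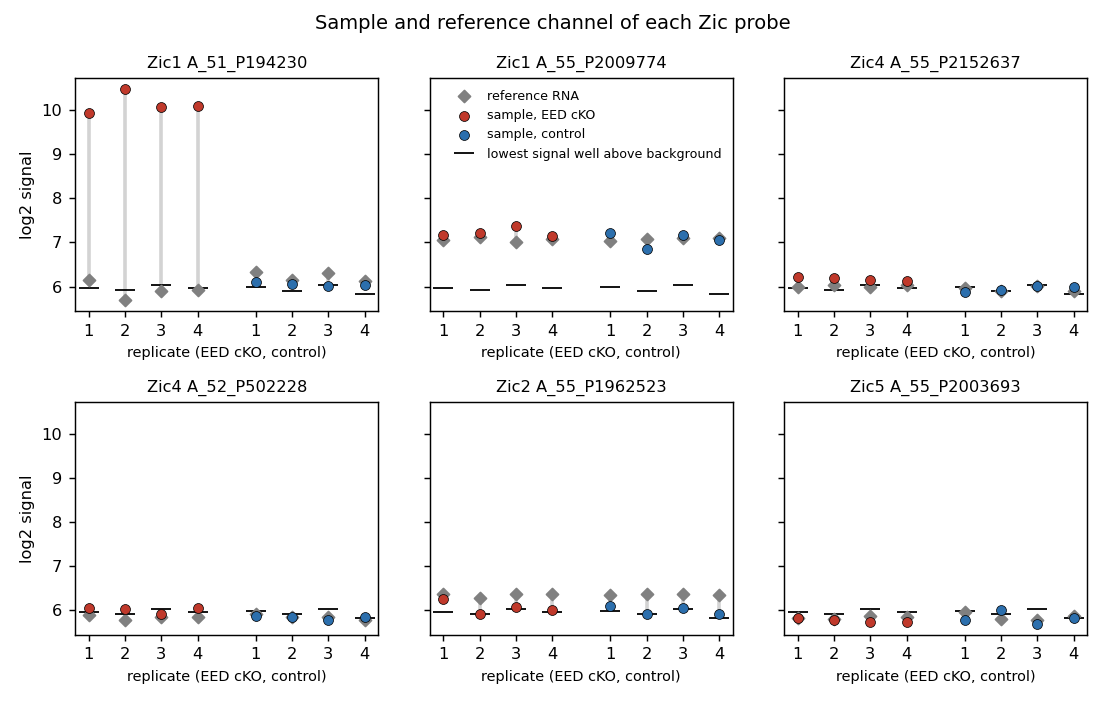
Normalized log2 signal (y axis) of the sample (red EED cKO, blue control) and of the reference RNA (grey diamonds) for each Zic probe, by replicate (x axis). Black dashes mark the lowest signal among probes well above background on that array. For Zic1 A_51_P194230 the sample sits near 10.15 in EED cKO and near 6.05 in control, whereas for Zic2 the reference lies above the samples.

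Of the 6 Zic probes, 3 passed the filter for testing, namely both of Zic1 and 1 of Zic4, a filter that required a signal well above background in no fewer than 3 samples of either genotype. For 2 of them all EED cKO arrays were above all control arrays, as was the case for 9.02% of all probes tested. Nothing is read from that count, since the genes were chosen with this contrast known.

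How large the Zic1 and Zic4 differences are depended on the treatment of background. Normexp with its offset shrinks ratios at dim spots. In the log ratio computed by the Feature Extraction software, without that offset, Zic1 A_51_P194230 read 5.95, 7.49, 6.05 and 6.82 in EED cKO and -1.68, -0.07, -2.81 and -0.46 in control replicates 1 to 4. The difference became 7.83, while A_55_P2009774 remained between 0.10 and 0.23 under all 16 alternatives with a fitted value.

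On the software's scale the Zic4 probes moved apart as well. A_55_P2152637 read 1.70, 0.93, 0.87 and 0.94 in EED cKO and -1.07, 0.37, 0.43 and -0.24 in control. A_52_P502228 read 2.19, 2.68, 1.32 and 2.31 in EED cKO, and -0.01 in control replicate 1 and exactly 0 in the other controls. The differences of 1.24 and 2.13 exceed 2-fold, whereas they were 0.15 and 0.18 with normexp. The Zic4 spots were well above background on at most 3 of 8 arrays, so neither scale gives a firm size.

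**Figure D3:**
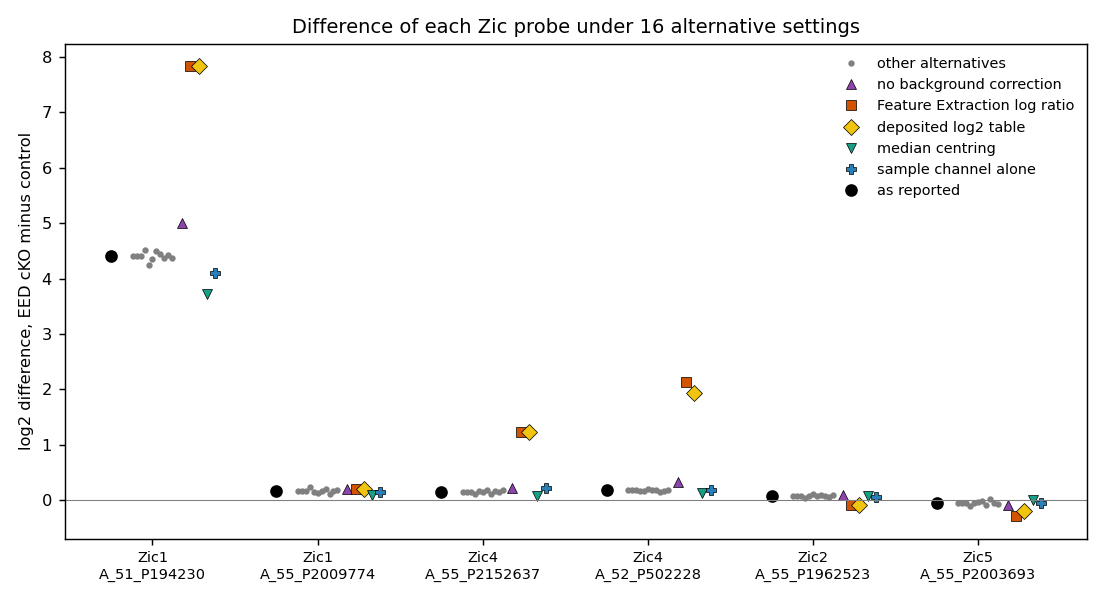
Difference in log2 ratio between EED cKO and control (y axis) of each Zic probe (x axis) as reported (black circles) and under 16 alternative settings (coloured symbols and grey points). Zic1 A_51_P194230 stays between 3.73 and 7.83, and both Zic4 probes rise above 1 only with the Feature Extraction and deposited ratios.

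The genes around each pair were measured to see whether neighbours moved with Zic1. The 5 nearest protein-coding genes on each side of the pairs made 20 genes, of which 12 were tested with 16 probes. With the adjusted p under 0.05 and a change of 2-fold or more required, 0 of the 16 probes were called by limma, against 1.05% of all probes tested. None of the 16 reached 2-fold, so the count was also 0 at an unadjusted p and by the methods' t-test. At any fold, 4 probes rose and 2 fell, which is 37.5% against 19.9% of all probes. Their median difference was -0.09, beside 0.02 over all probes tested.

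Around Zic1 and Zic4, Rasgrf1, an exchange factor for Ras that is imprinted in mouse, rose the most. Its log2 ratios were 0.99, 0.99, 1.05 and 1.09 in EED cKO and 0.37, 0.35, 0.06 and 0.25 in control replicates 1 to 4. The difference was 0.77 (SE 0.08, limma adjusted p = 0.000529), and its other probe was not well above background on any array. The probe that rose was well above background on 4 EED cKO but 2 control arrays, so it passed the filter only through EED cKO. Its difference ran from 0.56 to 2.77 over the alternatives. Ctsh, which encodes the lysosomal protease cathepsin H, was higher by 0.41 (SE 0.10, limma adjusted p = 0.0191).

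Tbc1d2b, the nearest coding gene on the Zic1 side, fell by 0.40 (SE 0.08, limma adjusted p = 0.00714). Plscr1, a phospholipid scramblase gene on the Zic4 side, fell by 0.56 with 1 probe (limma adjusted p = 0.0356) and was at -0.39 with the other (limma adjusted p = 0.0851). The 2 Morf4l1 probes were at -0.09 and 0.03 and did not pass. Plscr5, the nearest coding gene on the Zic4 side, as well as Adamts7, Plscr2, Plscr4 and 1700057G04Rik, were too dim to be tested.

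Around Zic5 and Zic2, the genes of mitochondrial enzymes on either side rose slightly. Clybl was higher by 0.40 with 1 probe (SE 0.13, limma adjusted p = 0.0483) and by 0.41 with the other, which missed the threshold (limma adjusted p = 0.0525) and passed with the replicate number as a block (limma adjusted p = 0.00834). Pcca was higher by 0.39 (SE 0.10, limma adjusted p = 0.0219). Gpr183 (-0.15), Ubac2 (-0.23), both Tm9sf2 probes (-0.24 and -0.10), Ggact (0.19) and Tmtc4 (-0.25) did not pass, although with the replicate block Ubac2 (limma adjusted p = 0.0387) and Tmtc4 (limma adjusted p = 0.0407) did. Timm8a2 and Nalcn were too dim to be tested, and no probe matched Gm46487.

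Of the 6 probes passing at any fold, Rasgrf1 passed in 16 of 16 alternatives, Tbc1d2b in 15, Ctsh in 10, Pcca in 9, Plscr1 in 8 and Clybl in 6. The alternatives are not independent, because Aquantile leaves the ratios as they are and the Feature Extraction and deposited ratios are nearly the same. The count fell to 2 without control replicate 2, without the dye term, and with the Feature Extraction and deposited ratios, and to 3 with median centring and without EED cKO replicate 1 or replicate 4. It rose to 9 with the replicate block.

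**Figure D4:**
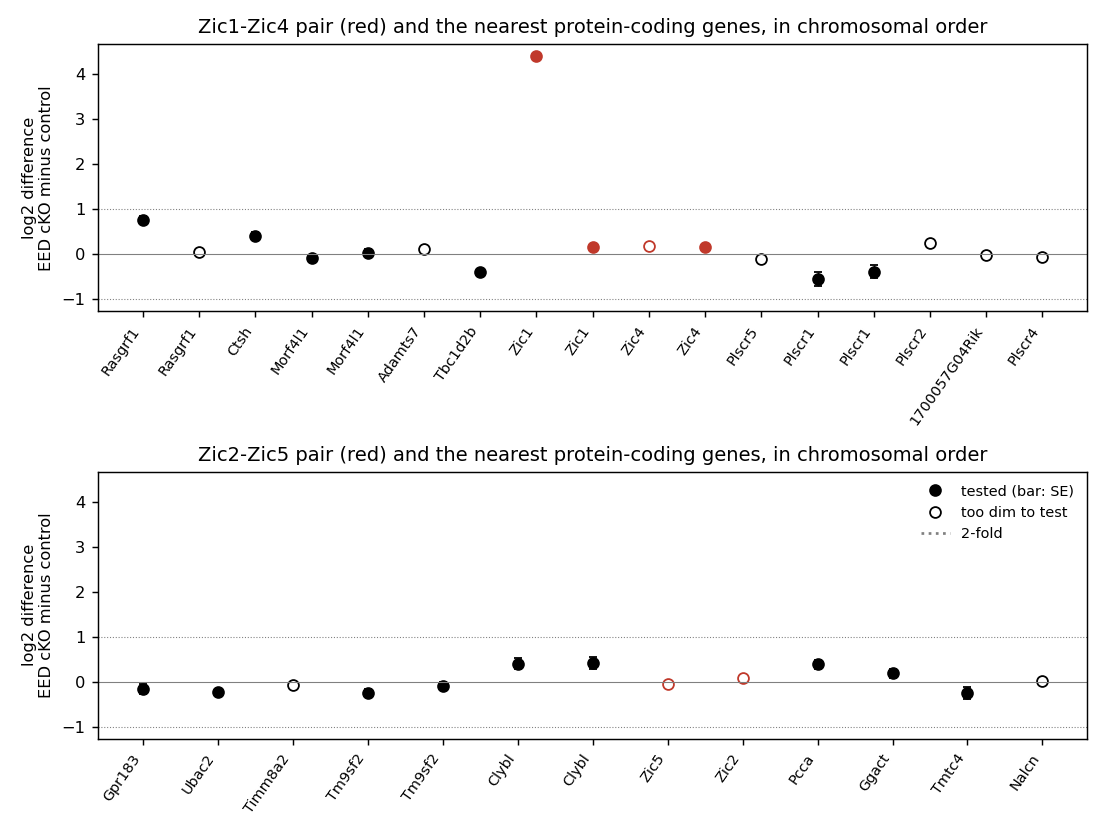
Difference in log2 ratio between EED cKO and control (y axis) of the Zic pairs (red) and of the nearest coding genes in chromosomal order (x axis, 1 point per probe). Filled points were tested, open points were too dim, bars are SE and dotted lines mark 2-fold. Zic1 probe A_51_P194230 at 4.40 stands alone beside Tbc1d2b at -0.40, while the second Zic1 probe, at 0.17, lies among the other probes.

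The genes of proteins with related zinc fingers were taken next. Gli1, Gli2, Gli3, Glis1, Glis2 and Glis3 gave 6 tested probes, of which 0 reached 2-fold and 0 were called by limma. At any fold, 2 fell and 0 rose, which is 33.3% against 19.9% of all probes, and the median was -0.05. Both were mediators of Hedgehog signaling. Gli2, its main activator, read 0.52, 0.71, 0.35 and 0.40 in EED cKO and 0.86, 1.31, 1.14 and 1.46 in control replicates 1 to 4. All EED cKO arrays were below all control arrays, as for 7.18% of all probes tested.

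The Gli2 difference was -0.70 (SE 0.11, limma adjusted p = 0.00269), and it passed in 16 of 16 alternatives. Gli3, which encodes the main repressor, fell by 0.46 (SE 0.12, limma adjusted p = 0.0219) but its groups overlapped. Gli3 did not pass in 6 alternatives, namely without EED cKO replicate 2 or 4, without control replicate 2 or 4, without the dye term and with the sample channel alone. Gli1, a transcriptional target of the pathway, was at 0.01 (limma adjusted p = 0.968). Glis1 (-0.10), Glis2 (0.03) and Glis3 (0.10) did not pass either. By quantitative PCR of P0 EED cKO and control epidermis, the paper reports no significant difference in Gli1, Gli2 or Gli3.

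Genes of the neural plate border and neural crest, the setting in which ZIC proteins are best known, did not move together. Of 19 tested probes 0 reached 2-fold and 0 were called by limma. At any fold, 3 rose and 5 fell, which is 42.1% against 19.9%, and the median was -0.03. The rises were both probes of Pax3, a paired-box regulator of neural crest and melanocytes, at 0.68 and 0.89, and Sox9, a regulator of crest and hair follicle stem cells, at 0.52. The falls were Tfap2b (-0.87), Sox10 (-0.50), Myc (-0.47), Snai2 (-0.39) and 1 of the Tfap2a probes (-0.30). The count of 8 dropped to 5 without EED cKO replicate 1 or 4, without control replicate 2 or 4, or without the dye term.

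Genes of neural progenitors and cerebellar granule neurons gave 11 tested probes. At any fold 5 rose and 0 fell, which is 45.5% against 19.9% of all probes, with a median of 0.16. No direction is read from this count. Otx2, Atoh1, Sox2 and Pax6 passed the filter only through EED cKO, where each was well above background on 4 arrays. In control they were so on 1, 2, 0 and 0 arrays. Otx2, a homeobox gene of the forebrain and midbrain, was the one called at 2-fold. It read 0.92, 1.31, 0.92 and 0.95 in EED cKO and -0.08, 0.05, 0.04 and -0.22 in control replicates 1 to 4, without overlap. The difference was 1.08 (SE 0.11, limma adjusted p = 0.000311). It fell just below 2-fold, to 0.98, without EED cKO replicate 2, to 0.99 with the sample channel alone, and to 0.86 with median centring in place of loess. The Otx2 difference was larger, at 1.45, without background correction and at 3.47 with the Feature Extraction ratio. With the control near background, its size is not firm.

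The other 4 were Atoh1, at 0.88, Barhl1, at 0.32, Sox2 and Pax6. Neither Sox2 nor Pax6 was well above background on any control array. With each control array set to no less than its lowest signal well above background, the sample-channel fold was 1.24 for Sox2 and 1.23 for Pax6. Atoh1 and Sox2 are also regulators of Merkel cells, and count among the Merkel cell markers below.

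**Figure D5:**
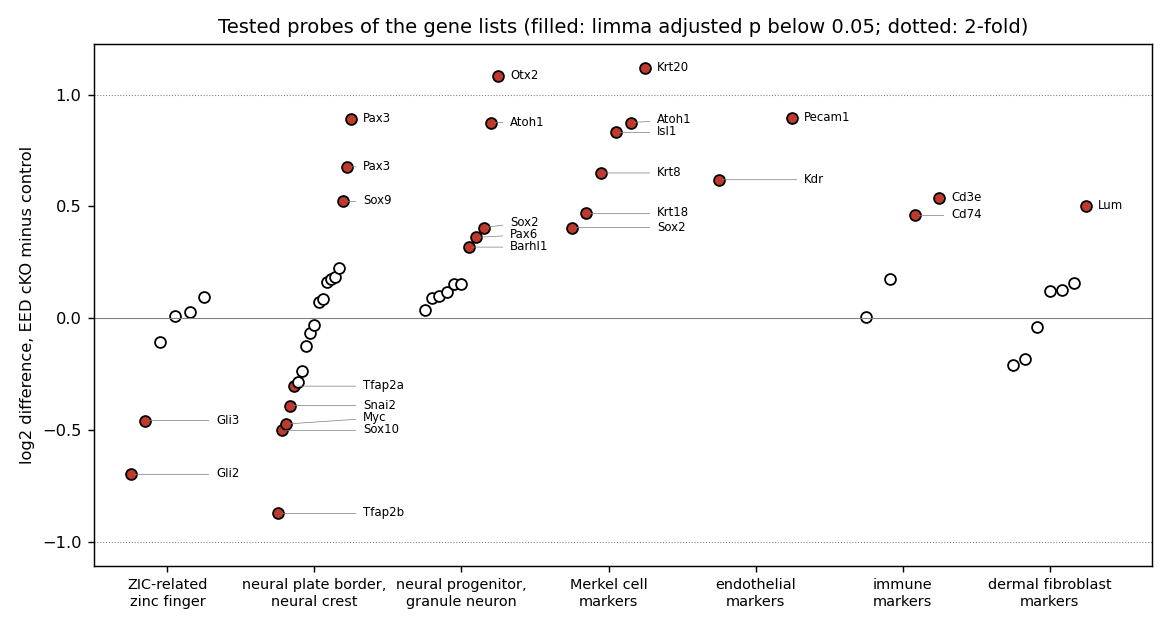
Difference in log2 ratio between EED cKO and control (y axis) of the tested probes in 3 gene lists and 4 lists of cell type markers (x axis). Filled points have a limma adjusted p below 0.05 and carry the gene name, and dotted lines mark 2-fold. Otx2 and Krt20 lie above the upper line, and the related zinc finger genes that passed, Gli2 and Gli3, lie below 0.

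Markers of some other cell types differed between the genotypes beside Zic1. At any fold, where 19.9% of all probes passed, all 6 Merkel cell markers rose, Krt20 among them by 1.12 (limma adjusted p = 5.824e-05). Their summed log2 signal lay between 10.93 and 11.22 in EED cKO and between 10.26 and 10.65 in control. In control, Sox2 was well above background on 0 arrays, and Atoh1 and Isl1 on 2 arrays each. Sox2, Atoh1 and Isl1 thus passed the filter only through EED cKO, which favours rises in this count. Endothelial markers, read with 5 probes, lay between 12.17 and 12.56 against 11.41 and 12.02, and both tested probes, of Pecam1 and Kdr, rose. The Kdr groups overlapped, and its other probe, well above background on 1 array of each genotype, was at 0.03. Cdh5 and Tek were not well above background on any array. Immune markers lay between 10.68 and 10.99 against 10.30 and 10.59, and 2 of 4 tested probes rose, Cd3e and Cd74.

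Dermal fibroblast markers overlapped in summed level, at 14.75 to 14.82 in EED cKO and 14.71 to 15.20 in control, and 1 of 7 probes, Lum, rose (14.3% against 19.9% of all probes). Markers of skeletal muscle (9.47 to 9.68 against 9.45 to 9.71), of Schwann cells and neurons (12.42 to 12.76 against 12.51 to 12.64) and of melanocytes (15.12 to 15.35 against 14.92 to 15.46) overlapped as well. None of the tested muscle and melanocyte probes passed at any fold. Of 9 tested Schwann cell and neuron probes 4 did (44.4%), with 2 probes of Ncam1 (0.40 and 0.24) and Syp (0.26) higher and Sox10 (-0.50) lower. Among the muscle probes, 2 of Myh3 and 1 of Myh8 were not well above background on any array, nor was 1 of the 2 Elavl4 probes. The part of any of these cell types in the Zic1 value was not tested.

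Over the 8 arrays, the log2 ratios most like those of Zic1 A_51_P194230, among 19355 named probes, were those of Etv2, which encodes an ETS factor of early vessel formation, with a Pearson correlation of 0.997. Nmu (0.994), which encodes the peptide neuromedin U, Il20ra (0.994), a cytokine receptor gene, Gm5476 (0.994) and Lce3f (0.993), a late cornified envelope gene, followed. The 2 genotypes lie far apart for Zic1, so any probe with a large, even rise comes near 1 on this measure. In EED cKO and control the mean log2 ratios were 2.90 and 0.08 for Etv2, 3.84 and 0.65 for Nmu, and 3.39 and 0.20 for Lce3f. For the second Zic1 probe, A_55_P2009774, the nearest were other genes, among them Car7 (0.985), Kif5c (0.982), Apc (0.970) and Pyurf (0.965), with differences between 0.14 and 0.25.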

How the data were processed

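RNA of 4 EED cKO and 4 control samples was measured on 8 two-colour Agilent arrays. Per the file headers, the authors scanned the arrays and extracted them with Agilent Feature Extraction 12.0.1.1, and deposited raw spot and background intensity per channel with the software's log10 ratio of Cy5 over Cy3. The authors also deposited log2 values per probe and array. Here the median intensity was corrected by normexp (offset 50), normalized by loess and turned to sample over reference. Control spots and outlier flags were left out, and replicate spots were averaged. Genes were named through the RefSeq table of GRCm38.p6, which named 28026 of the 29796 probes with an accession. The array was designed on an older build, so no probe coordinates are given.

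Probes whose sample channel was well above background on 3 or more arrays of either genotype were tested with limma 3.58.1 in R 4.3.3 (genotype plus dye), each probe on its own, with Benjamini-Hochberg adjustment over 30727 probes. A call required an adjusted p under 0.05 and a change of 2-fold or more, and 31 probes were fitted with a missing value, none of Zic genes. The fit was first tested on simulated data. Members and lists were chosen with earlier results of these data known. Named in the text were every Zic probe, Eed, every flanking and related zinc finger gene, up to 3 called genes of each other list and the 5 probes most like each Zic1 probe, apart from genes that are not reported here. The further list members that passed were named after their values were seen.

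For some probes that were well above background on no control array, a sample-channel fold is given. Each control array was then set to no less than its lowest signal well above background. This floor is not a detection limit, so the fold is not a firm minimum. Samples with the same replicate number, which also marks slide column and dye, deviated together, with correlations of 0.49, 0.67, 0.32 and 0.36 over probes (0.13 and 0.44 once the dye was removed). The labels call the samples biological replicates. Alternatives were no background correction, the software's ratio, the deposited table, median centring, Aquantile, the sample channel alone, no or a stricter filter on dim probes, an intensity trend, 1 probe per gene, no dye term, the replicate block, no fold limit, the methods' t-test and each array left out in turn.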

Additional observations from a re-analysis of the deposited data

Results flagged for a closer look

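Among the EED cKO values of Zic1 probe A_55_P2009774, replicate 3 stood apart at 0.35 while the other 3 arrays lay between 0.06 and 0.10. The gap to its nearest neighbour was 0.861 of the whole range, above Dixon's critical value for 4 samples. Chance gives such a gap in about 1 of 20 groups.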

How the results depend on the processing

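The difference of Zic1 A_51_P194230 was 5.00 without background correction, 7.83 with the Feature Extraction and the deposited ratios, 3.73 with median centring and 4.09 with the sample channel alone, and 4.25 to 4.51 when 1 array was left out. That of A_55_P2009774 was 0.12 to 0.23 with 1 array left out. Zic4 A_55_P2152637 gave 0.23 without background correction, 1.24 with both software ratios, 0.0684 with median centring and 0.11 to 0.19 with 1 array left out. Zic4 A_52_P502228 gave 0.33, 2.13 with the Feature Extraction and 1.94 with the deposited ratio, and 0.16 to 0.20. Zic2 A_55_P1962523 turned to -0.0836 with both software ratios and lay between 0.04 and 0.12 with 1 array left out. Zic5 was -0.28 and -0.19 with the Feature Extraction and deposited ratios, 0.0033 with median centring, and -0.10 to 0.0248 with 1 array left out, the latter without control replicate 2. The Zic2 and Zic5 probes were not well above background in any sample. Aquantile leaves the ratios as they are by construction.

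Of all probes, 323 were called, 292 higher and 31 lower (90.4% higher). The count was 875 with both software ratios (81.7% higher), 6125 without a fold limit (54.6% higher), 185 with the methods' t-test after Benjamini-Hochberg (320 without it) and 302 to 374 with 1 array left out. Median centring gave 238, of which 71% were higher. The replicate block gave 327 and changed no call of a list at 2-fold, while at any fold it moved the flanking count from 6 to 9 and the neural crest count from 8 to 9. Called flanking probes went from 0 to 1 (Rasgrf1) without background correction and with both software ratios, and to 6 without a fold limit. Related zinc finger probes went from 0 to 1 (Gli2) with both software ratios and to 2 without a fold limit. Neural crest probes went from 0 to 2 with both software ratios and to 8 without a fold limit. Leaving out 1 array gave 0 in these 3 lists. Neural progenitor probes went from 1 to 2 without background correction, to 4 with both software ratios, to 5 without a fold limit, and to 0 with median centring, with the sample channel alone and without EED cKO replicate 2 (0 to 1 with 1 array left out). The cause of these changes was not tested. Signal near background limits all Zic values but those of Zic1 A_55_P2009774, and for Zic1 A_51_P194230 it limits the control side.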

Other observations

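Control replicates 2 and 3, and none of the other 6 samples, had high levels of Y-linked Ddx3y, Uty and Eif2s3y RNA with little Xist. The log2 ratios of Eif2s3y were 2.23 and 2.25 there and between -2.86 and -2.53 elsewhere. The Kdm5d probe did not follow this, at 0.52 in EED cKO replicate 2 against 0.09 and -0.13 in control replicates 2 and 3. This pattern was thus not balanced between the genotypes, and sex was not in the fit. Zic1 probe A_51_P194230 read -0.08 and -0.30 on those 2 control arrays, and -0.23 and -0.08 on the other 2.

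Of the noncoding genes beside the pairs, Gm5089 had a probe. It was well above background on 0 of 8 arrays, with a difference of 0.02.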
